A study of Mus musculus with 4 samples.

Results

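Smooth muscle cells (SMCs) of neural crest descent were compared between the ends of the crest's territory in the aorta of the mouse, the arch and the root. Cells were chosen from 2 droplet-based single-cell RNA libraries by 7 conditions on each barcode. These were at least 1000 detected genes, at most 10% mitochondrial unique molecular identifiers (UMIs), at least 10 UMIs of the SMC myosin gene Myh11, at most 5 UMIs of C1qa, C1qb and Lyz2 summed, at most 1 UMI of Cdh5 and Emcn summed, at least 8 UMIs of eGFP and at most 1 of tdTomato. They left 7346 of 10506 barcodes of the arch library and 570 of 4040 barcodes of the root library, that is 7916 of the 29930 barcodes of all 4 libraries. The arch and root cells so chosen are called Arch eGFP and Root eGFP cells.

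All animals were 12 weeks old and carried Wnt1-Cre2, a Cre recombinase expressed in the early neural crest, together with the mTmG reporter. In this reporter Cre switches a cell and all its daughters for good from tdTomato to eGFP, both anchored in the membrane. No treatment is named in the labels. Per the labels' protocols, digested segments were stained for the integrin ITGA8 and positive cells were sorted, by eGFP alone for the arch library. The other libraries were sorted eGFP and tdTomato cells of the ascending aorta, and the root library held both colours. Each group was 1 library. How many animals went into a library, and of which sex, is not stated in the labels. Every interval below is at 95% and covers counting error only, and no test between groups was possible.

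Neural crest cells leave the dorsal neural tube, populate the pharyngeal arches and form the SMCs of the arch arteries and of part of the ascending aorta and root. At the root they lie beside SMCs from the second heart field, a mesodermal progenitor pool that also builds the outflow tract. HOX, Dlx and other homeobox genes give crest cells positional identities in the embryo, whereas Gata4 and several T-box genes are regulators of heart development.

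The chosen cells had similar depth, with medians of 13187 UMIs in Arch eGFP and 12848.5 in Root eGFP cells, and eGFP stood at 3844 and 3739 CPM. Levels in CPM are UMIs of a gene summed over the cells of a set, per 1000000 UMIs of that set, from 97607686 UMIs in the arch and 7631903 in the root. All 12 SMC markers were at 5 CPM or more in both sets, with summed levels of 53443 and 56264 CPM. Myh11 among them was required by the conditions on barcodes and Itga8 encodes the protein of the sort, and of the other 10 the lowest was Des, at 27.3 and 34.2 CPM. The sexes differed: of cells with UMIs of Xist or of 4 Y-linked genes but not of both, 28.2% were female in Arch eGFP (1592 cells) and 88.1% in Root eGFP (475 cells). The 64 male Root eGFP cells also differed from the female ones in several genes described below. Ratios in female cells alone were therefore also taken for the 30 leading genes and for some others. The counts for gene lists are for all cells. UMIs of both kinds were found in 10.5% of Arch eGFP and 1.05% of Root eGFP cells. The libraries shared 13 barcodes, 1 of them among the chosen cells.

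Across all genes the cells were alike for the most part. Among the 5898 genes that reached 20 CPM in one of the sets, 93.5% were within 1.5-fold, and the median log2 ratio of arch over root was 0.04. At least 2-fold higher in Arch eGFP cells were 85 genes (1.44%), and at least 2-fold lower were 63 (1.07%), or 148 in all (2.51%). In female cells alone the counts were 78 and 45, of which 62 and 31 were among the same 85 and 63. Among genes at least 4-fold apart, 17 were higher and 14 lower in the arch. The threshold is a fixed one. Just inside it were Plxna4 and Col15a1 with log2 ratios of 1.002 and 1.01, and just outside was Htra3 at 0.99, while Fgd4 at -1.01 lay inside and Omd at -0.99 outside on the other side.

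**Figure D1:**
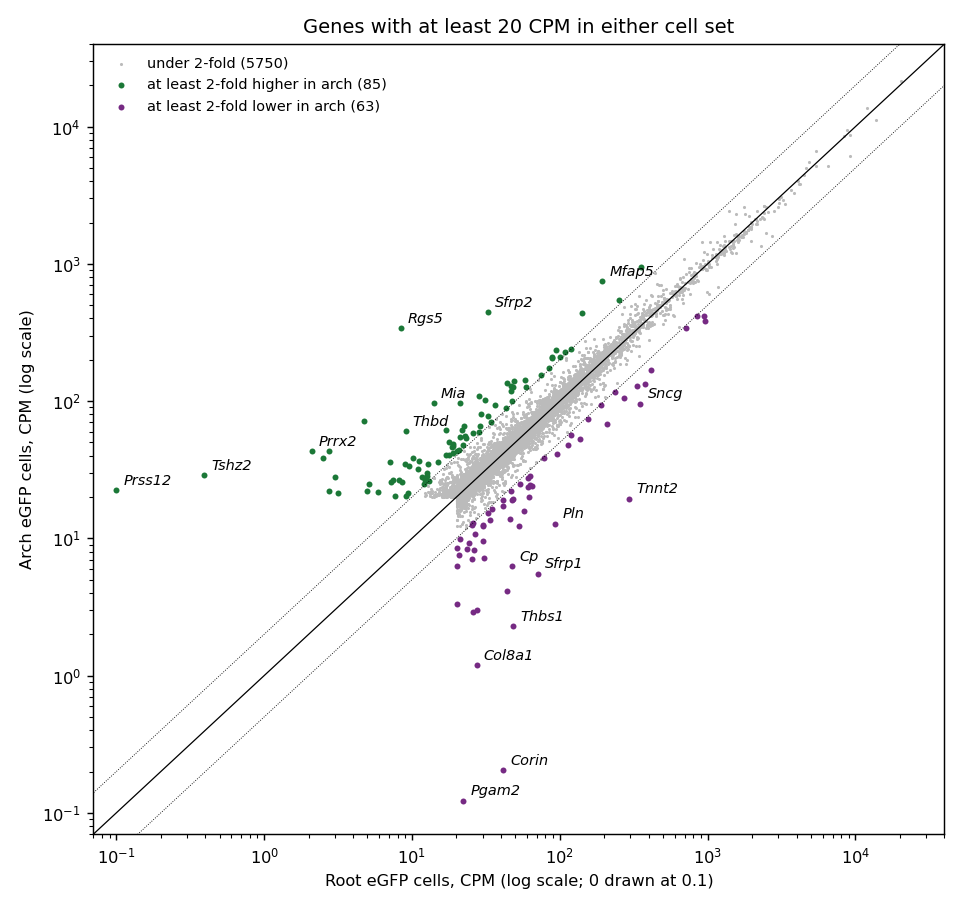
Level of each of 5898 genes in Root eGFP cells (x axis, CPM, log scale) and Arch eGFP cells (y axis, CPM, log scale); points are genes and dotted lines mark 2-fold. The 85 genes higher in the arch (green) and 63 lower (purple) lie apart from a narrow diagonal band, with Rgs5, Tshz2 and Prss12 far above it and Corin and Pgam2 far below.

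Segments of the crest territory and colours within the root can be set beside each other. Set against the 6136 eGFP cells of the ascending aorta chosen in the same way (Asc eGFP), Arch eGFP cells had 19 genes at least 2-fold higher (0.33%) and 4 lower (0.0694%). Between Asc eGFP and Root eGFP cells, 28 genes were higher (0.483%) and 35 lower (0.603%) in the ascending aorta. Between Root eGFP cells and the 1617 tdTomato cells of the same library (at least 2 tdTomato and at most 1 eGFP UMI), 5 genes were higher (0.0873%) and 15 lower (0.262%) in Root eGFP. These comparisons share cell sets, and each count stands on its own.

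The 15 genes that led the arch side were ranked by the bound of the ratio's interval nearest to no change. Rgs5, which speeds the shut-off of G-protein signals and marks pericytes and some arterial SMCs, was at 340 CPM in Arch eGFP and 8.39 CPM in Root eGFP cells. This is a difference of 5.34 on the log2 scale (4.99 to 5.72), or 40.6-fold. Its level was 100 CPM in Asc eGFP, 29.0 in Root tdTomato and 116 in tdTomato cells of the ascending aorta (Asc tdTomato), so in the middle segment both colours lay between arch and root.

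Among regulators, Prrx2, a homeobox gene of crest mesenchyme, was at 43.0 CPM in the arch and 2.10 in the root (log2 4.36, 3.66 to 5.17) and at 6.75 CPM in Asc eGFP. Tshz2, a zinc-finger homeobox gene, was at 28.7 CPM in the arch, and 3 UMIs (0.393 CPM) were found in all 570 root cells (log2 4.64 to 8.47). In each of the 3 other cell sets both genes were under 10 CPM, with Tshz2 at 3.07 CPM in Asc eGFP.

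Sfrp2, a secreted Wnt antagonist, was the most abundant of the 15, at 443 CPM in the arch, 250 in Asc eGFP and 32.5 in the root (log2 3.77, 3.59 to 3.96). Gm26771, an antisense gene whose end overlaps that of Sfrp2 (3:83773853 to 83789956 against 83766321 to 83774316, mm10, opposite strands), was at 71.2 and 4.72 CPM. The labels do not say whether counting used strand, so reads of this pair cannot be told apart with certainty.

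Prss12 encodes neurotrypsin, a secreted serine protease that cleaves agrin. It was at 22.5 CPM in the arch and had 0 UMIs in Root eGFP cells, where 3 UMIs would be 0.393 CPM, so it was at least 57.3-fold higher. In the 3 other cell sets it was between 0.349 and 1.003 CPM. Epha3, an ephrin receptor of axon guidance, had the same shape with 21.97 CPM in the arch and 2.75 in the root (log2 2.997, 2.38 to 3.69) and at most 2.65 CPM elsewhere.

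Matrix genes on this side were Adamtsl1 (43.3 and 2.75 CPM, log2 3.98, 3.36 to 4.67), which encodes a protease-like glycoprotein, and Fbln1 (38.4 and 2.49 CPM, log2 3.95, 3.30 to 4.68), which encodes fibulin 1. Adamtsl1 was at 0.930 CPM in Asc eGFP, under its level in the root. Mia, a small secreted protein of cartilage and melanoma cells, was at 96.2 CPM in the arch, 53.3 in Asc eGFP and 14.0 in the root (log2 2.78, 2.50 to 3.07), and at 4.66 and 15.3 CPM in root and ascending tdTomato cells. Lamc3, a laminin chain, was at 96.9 and 21.0 CPM (log2 2.21, 1.98 to 2.44). Thrombomodulin (Thbd), which restrains clotting, was at 60.1 and 9.04 CPM (log2 2.73, 2.39 to 3.10), and tissue factor (F3), which starts it, at 21.4 and 3.14 CPM (log2 2.77, 2.19 to 3.41). The last 2 were Ablim1, an actin-binding LIM protein (27.9 and 3.01 CPM), and Gm8797 (36.1 and 7.08 CPM). RefSeq lists Gm8797 as a pseudogene, whereas its Ensembl entry is typed as protein-coding, and its reads could come from a near copy.

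**Figure D2:**
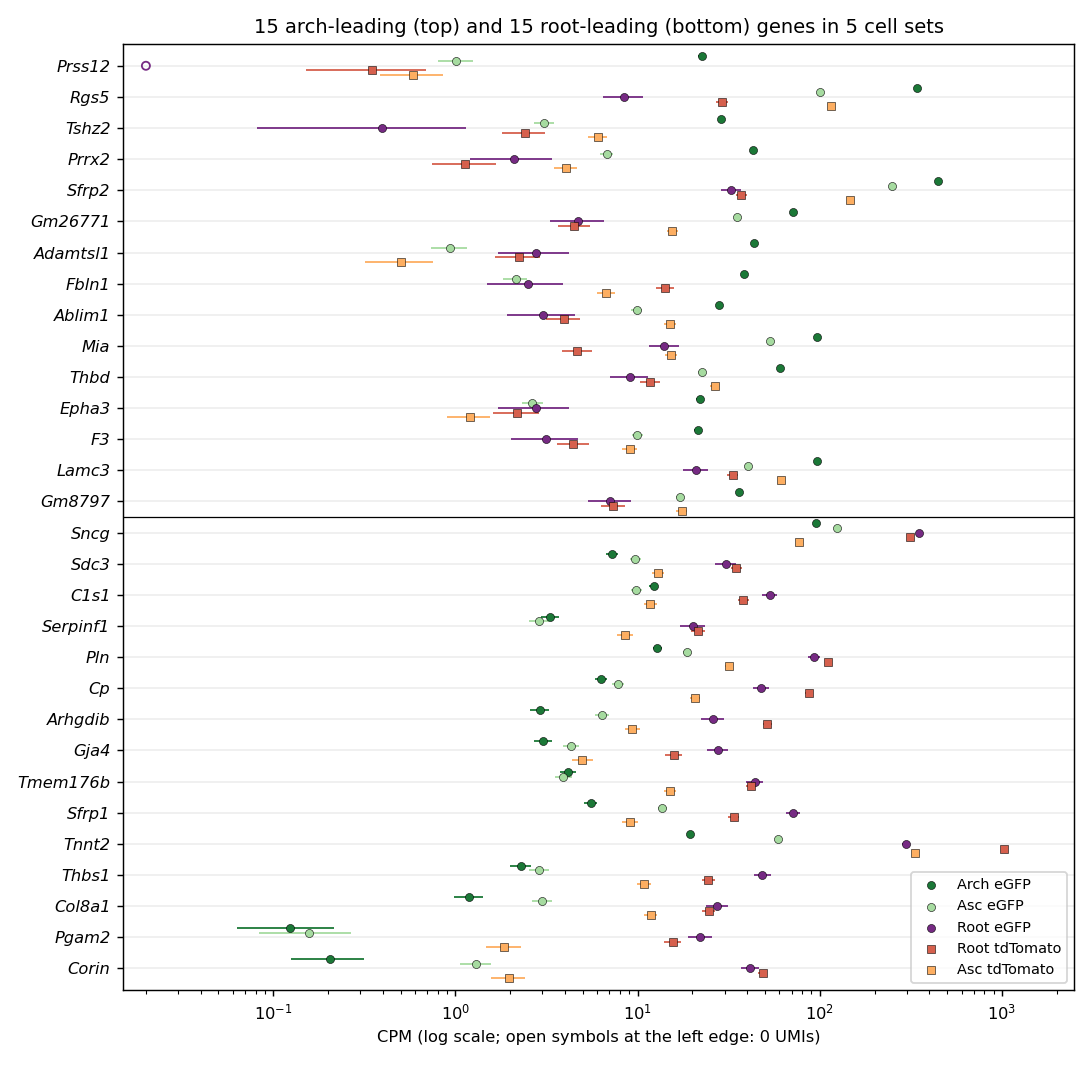
Level (x axis, CPM, log scale) of the 15 arch-leading and 15 root-leading genes (y axis) in 5 cell sets; bars are exact Poisson intervals and the open symbol marks 0 UMIs. Asc eGFP levels lie between arch and root for Rgs5, Sfrp2 and Mia, whereas Prss12, Adamtsl1 and Epha3 are high in Arch eGFP alone, and most root-leading genes are high in both root sets.

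The 15 genes that led the root side included cardiac and muscle genes. Corin, the membrane protease that activates the heart's natriuretic peptide, was at 41.5 CPM in Root eGFP and 0.205 CPM in Arch eGFP cells, 203-fold lower in the arch (log2 -7.66, -8.39 to -7.01). It was at 48.6 CPM in Root tdTomato and at 1.29 and 1.96 CPM in eGFP and tdTomato cells of the ascending aorta, so its level differed by segment more than by colour. Pgam2, the muscle form of a glycolytic mutase, was at 22.1 and 0.123 CPM (log2 -7.49, -8.47 to -6.65).

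Tnnt2, the cardiac troponin T gene, was at 296 CPM in Root eGFP, 19.4 in Arch eGFP and 58.8 in Asc eGFP (log2 arch over root -3.93, -4.02 to -3.84). Its level differed by colour as well as by segment, with tdTomato cells at 1029 CPM in the root and 332 in the ascending aorta. What set these levels was not tested. Pln, phospholamban, which restrains the calcium pump of the sarcoplasmic reticulum, was at 92.8 and 12.8 CPM (log2 -2.85, -2.99 to -2.72). Sncg, gamma-synuclein, often abundant in contractile SMCs, was at 350 and 95.8 CPM (log2 -1.87, -1.93 to -1.81).

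Secreted and matrix genes followed. Col8a1, a short-chain collagen of vessels, was at 27.4 CPM in the root and 1.19 in the arch (log2 -4.53). Thbs1, thrombospondin 1, was at 48.5 and 2.29 CPM (log2 -4.40). Sfrp1, a Wnt antagonist of the same family as Sfrp2, ran the other way from it, at 71.4 CPM in the root and 5.52 in the arch (log2 -3.69, -3.87 to -3.52). Cp (ceruloplasmin), Serpinf1 (an anti-angiogenic serpin), C1s1 (a complement protease) and Sdc3 (a syndecan) were at 47.7, 20.05, 53.1 and 30.5 CPM in the root and at 6.29, 3.31, 12.3 and 7.22 CPM in the arch. Gja4, the gap-junction protein connexin 37, was at 27.5 and 3.02 CPM.

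The remaining pair, Tmem176b and Arhgdib, are also abundant in macrophages. They were at 44.0 and 25.8 CPM in Root eGFP and at 4.14 and 2.91 CPM in Arch eGFP cells. In 71 macrophages of the root library (over 5 UMIs of C1qa, C1qb and Lyz2 and under 10 of Myh11) they stood at 805 and 631 CPM. The Root eGFP levels were 5.47% and 4.09% of the macrophage levels for these genes, and 0.018% and 0.0221% for Tyrobp and Fcer1g, taken here as macrophage markers. Of the genes above, Cp (115 CPM), Sdc3 (115) and Serpinf1 (46.6) were also higher in the root macrophages than in Root eGFP cells. The summed level of 10 macrophage markers was 14.8 CPM in Root eGFP and 0.635 CPM in Arch eGFP cells, in which the conditions had limited C1qa, C1qb and Lyz2. The part of macrophage RNA in these values was not tested.

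The 250 bases before the transcription start of 4 genes that carry this contrast follow, Rgs5 from the arch side and Corin, Tnnt2 and Pln from the root side, from RefSeq (GRCm38.p6), each 5′ to 3′ along its gene. The windows are chr1:169655251-169655500, plus strand for Rgs5, chr5:72504541-72504790, minus strand for Corin, chr1:135836084-135836333, plus strand for Tnnt2 and chr10:53337436-53337685, plus strand for Pln. Capitals mark AGATAA or its reverse complement TTATCT, a form of the short core that GATA factors bind. Other forms of that core are not marked.
Rgs5: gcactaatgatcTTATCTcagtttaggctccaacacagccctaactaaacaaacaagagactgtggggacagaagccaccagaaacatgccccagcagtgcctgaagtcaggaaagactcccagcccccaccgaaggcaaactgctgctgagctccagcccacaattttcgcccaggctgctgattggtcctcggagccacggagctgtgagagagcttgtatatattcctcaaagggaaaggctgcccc
Corin: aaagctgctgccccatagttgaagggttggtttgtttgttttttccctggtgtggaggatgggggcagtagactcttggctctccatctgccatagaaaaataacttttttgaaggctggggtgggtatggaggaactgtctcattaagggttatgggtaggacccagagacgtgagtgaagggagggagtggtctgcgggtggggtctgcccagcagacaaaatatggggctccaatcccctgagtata
Tnnt2: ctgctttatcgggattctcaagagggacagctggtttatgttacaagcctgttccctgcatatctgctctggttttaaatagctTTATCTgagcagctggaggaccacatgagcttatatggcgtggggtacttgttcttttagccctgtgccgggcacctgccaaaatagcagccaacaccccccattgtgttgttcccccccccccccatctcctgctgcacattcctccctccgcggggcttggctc
Pln: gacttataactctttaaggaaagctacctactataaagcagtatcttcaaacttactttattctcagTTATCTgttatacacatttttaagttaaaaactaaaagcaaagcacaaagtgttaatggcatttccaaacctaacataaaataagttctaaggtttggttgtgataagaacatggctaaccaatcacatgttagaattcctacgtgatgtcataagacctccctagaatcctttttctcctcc
Of 23 leading genes matched to this table, AGATAA was found on either strand in 2 of 10 arch-leading genes (Epha3 and Rgs5) and 3 of 13 root-leading genes (Pln, Serpinf1 and Tnnt2), beside 10.3% of 27025 windows of this length. TAATTA, a core of many homeodomain proteins, was in 0 of 10 and 0 of 13, beside 4.90% of all windows. Such matches describe the letters of these windows and are not binding sites.

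Ratios were also taken within 1 sex. In female cells alone, 29 of the 30 leading genes were at least 2-fold apart in the same direction, and C1s1 was not (log2 -0.82, against -2.11 in all cells). The female log2 ratio differed from that of all cells by over 1.5-fold for Pgam2 (-4.94), Corin (-6.86), Thbs1 (-3.31), Col8a1 (-3.67), Cp (-2.24), Sncg (-1.26), Fbln1 (4.94), Adamtsl1 (4.67) and Prrx2 (3.68). Tnnt2 (-4.14), Pln (-2.91), Sfrp1 (-3.92), Rgs5 (4.82), Sfrp2 (3.55) and Mia (2.81) moved less. In male cells Gm8797 was the only one of the 30 under 2-fold (log2 0.81), with 64 root cells behind each value. Prss12, Tshz2 and Epha3 had 0 UMIs in those root cells, so their male ratios are bounds. Rgs5, Prrx2, Ablim1, Mia and F3 had 1 UMI each there.

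**Figure D3:**
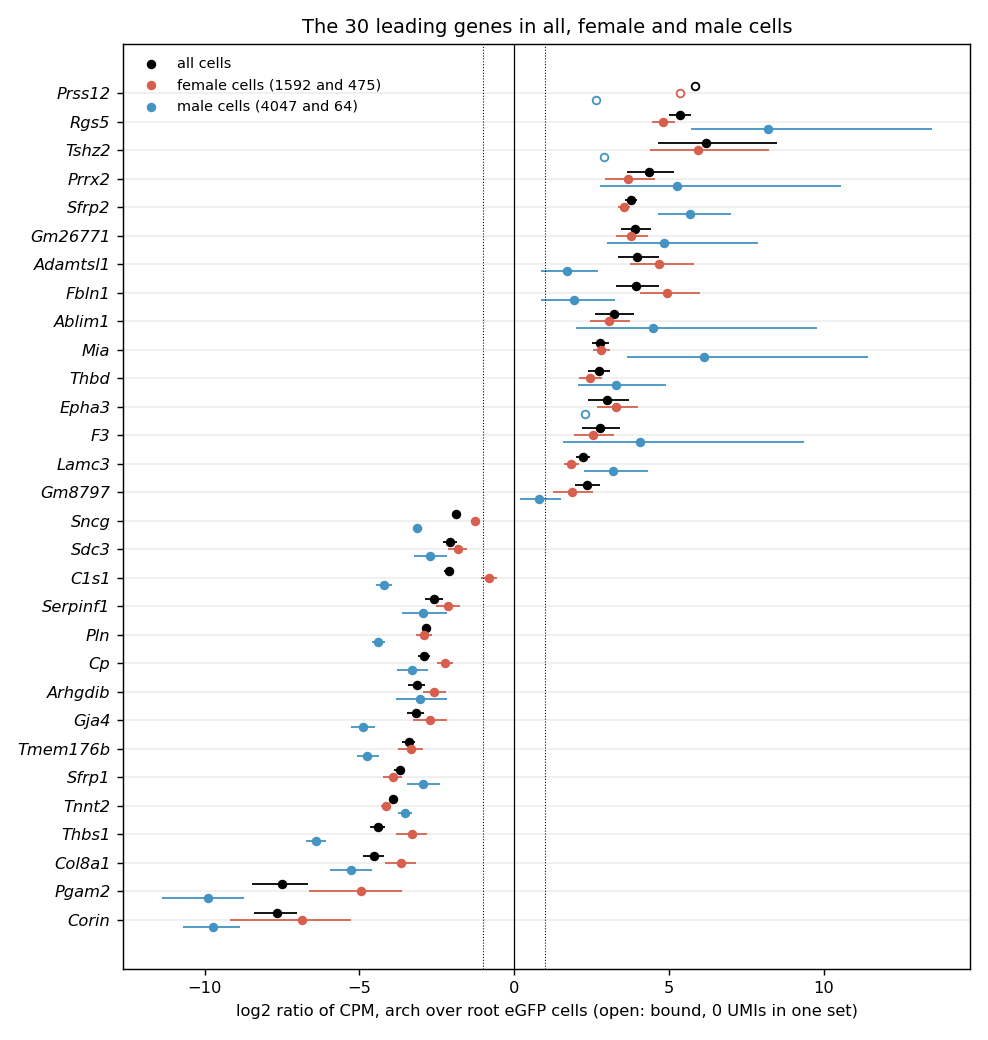
Log2 ratio of arch over root eGFP cells (x axis) for the 30 leading genes (y axis) in all, female and male cells; bars are exact intervals for counting error and open symbols are bounds where a set had 0 UMIs. Signs are the same in all 3 groupings, and C1s1 in female and Gm8797 in male cells lie inside the dotted 2-fold lines.

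The Root eGFP cells were not of 1 kind. Of the 570, 96 (16.8%, 13.9 to 20.2) held a Corin UMI, namely 32 of 64 male cells (interval 37.2% to 62.8%), 49 of 475 female cells (10.3%, 7.73 to 13.4) and 15 with UMIs of both kinds or of neither. In female Root eGFP cells Corin was at 16.2 CPM and in male ones at 177. Pgam2 (7.09 and 101 CPM), Thbs1 (21.1 and 220), Gja4 (13.7 and 98.0), C1s1 (27.8 and 206) and Pln (63.9 and 270) were higher in the male cells too, whereas Tnnt2 (309 and 235) was close. Root tdTomato cells went the same way, with Corin at 38.3 CPM in 1358 female and 120 in 182 male cells, and C1s1 at 31.4 and 78.8 CPM. Sex, animal and the piece of tissue taken cannot be told apart in this library.

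Cells with a Corin UMI carried other root-leading genes at higher levels than the other 474 Root eGFP cells. Pgam2 was at 98.4 CPM in them and 6.33 in the others, Thbs1 at 170 and 23.3, Pln at 306 and 48.6, C1s1 at 184 and 25.9 and Tmem176b at 127 and 26.7. Eln was lower in them (689 and 1542 CPM), as was Mfap5 (22.1 and 229 CPM), whereas Adamtsl1 was at 9.92 and 1.27 CPM. Tnnt2 (371 and 280 CPM), Col8a1 (35.1 and 25.8), Sfrp1 (83.2 and 69.0) and Arhgdib (22.9 and 26.4) were spread over both groups. Since male cells were over-represented among them, the levels were also taken in female cells alone, 49 with and 426 without a Corin UMI. There Pgam2 was at 26.9 and 4.67 CPM, Thbs1 at 56.6 and 16.8, Pln at 195 and 47.8, C1s1 at 89.2 and 20.2, Tmem176b at 97.7 and 24.6, Tnnt2 at 593 and 274, Eln at 937 and 1563 and Mfap5 at 36.8 and 242. The gaps in Pgam2, Thbs1, Pln, C1s1, Tmem176b, Eln and Mfap5 were thus smaller in female cells than in all cells. Those in Tnnt2 and in Sfrp1 (120 and 71.0 CPM in female cells) were larger. These cells were picked by a gene of the contrast itself after its values were seen, so the values are a description.

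Arch eGFP cells were also mixed. In 1685 of them (22.9%, 21.98 to 23.9), and in 5 Root eGFP cells (0.877%), there was a UMI of Dlx5, Dlx6 or Tfap2b, regulators of the branchial crest. Female cells made up 25.3% of the sexed cells of this group and 29.1% of the other Arch eGFP cells. Most arch-leading genes were concentrated in it. Adamtsl1 was at 157 CPM in these cells and 8.70 in the other 5661, Prss12 at 78.0 and 5.66, Tshz2 at 99.4 and 7.25, Fbln1 at 128 and 11.2, Rgs5 at 993 and 142 and Prrx2 at 126 and 17.8 CPM. Epha3 (27.0 and 20.4) and Gm8797 (39.7 and 35.0) were nearly even, and Mia was at 160 and 76.9 CPM.

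Without these cells all 30 leading genes were still at least 2-fold apart, while the counts over all genes were 56 higher and 55 lower, 53 and 53 of them among the 85 and 63. The ratios of several arch-leading genes were smaller by over 1.5-fold: Prss12 at least 3.85 on the log2 scale, Rgs5 4.08, Tshz2 4.21, Prrx2 3.09, Sfrp2 3.15, Gm26771 3.33, Adamtsl1 1.66, Fbln1 2.17, Thbd 2.09, F3 1.996 and Lamc3 1.51. Corin was at -8.43. This division too was chosen after values were seen.

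**Figure D4:**
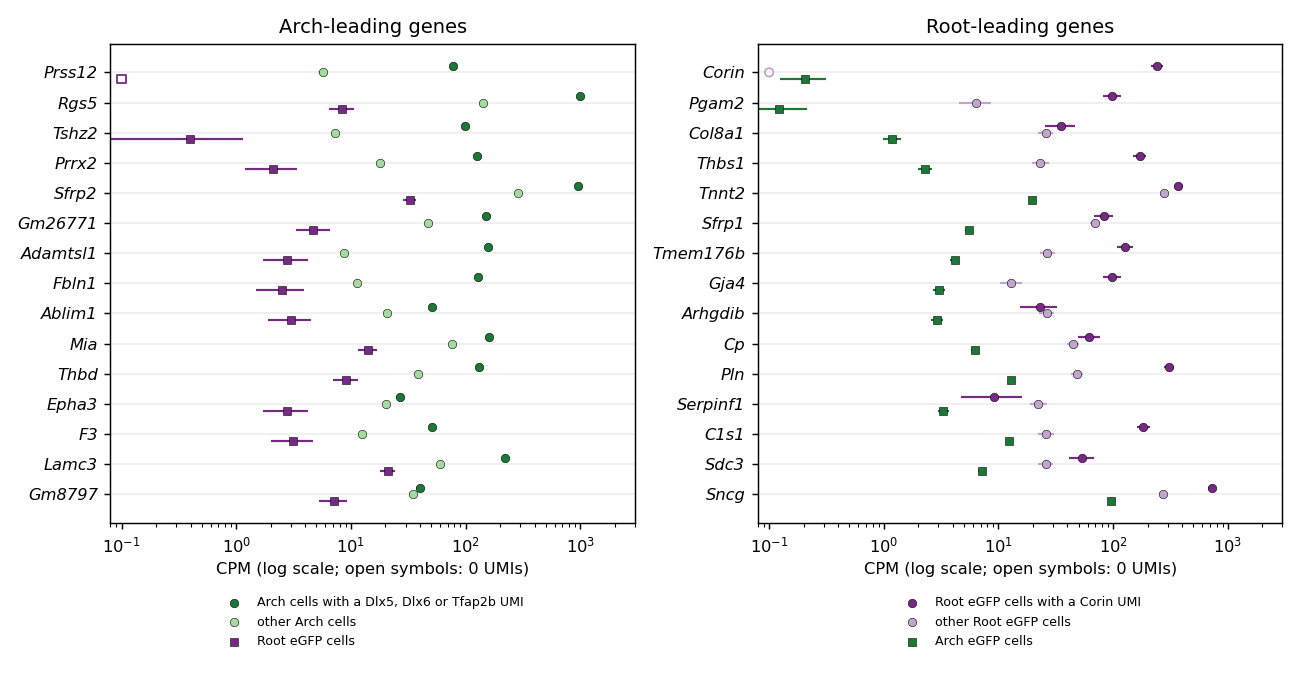
Level (x axis, CPM, log scale) of arch-leading genes in Arch eGFP cells with and without a Dlx5, Dlx6 or Tfap2b UMI and in Root eGFP cells (left), and of root-leading genes in Root eGFP cells with and without a Corin UMI and in Arch eGFP cells (right); bars are exact Poisson intervals and open symbols mark 0 UMIs. Adamtsl1 is at 157 CPM with and 8.70 without such a UMI, and Pgam2 at 98.4 and 6.33, whereas Epha3 is close between subsets. Tnnt2 is close in the drawn cells of both sexes together, but not in female cells alone (593 and 274 CPM).

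For 35 gene lists, members that reached 5 CPM in one of the sets were called higher or lower where they were at least 1.5-fold apart and the interval did not hold a ratio of 1. Over all 9835 genes at that level, 5.38% were higher and 3.73% lower in the arch by this rule, with a median log2 ratio of 0.05. Lists far from these shares included heart and crest regulators, HOX genes, elastic fibre and immediate-early genes.

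Of 13 measured crest and branchial regulators, 6 were higher in the arch and 2 lower, with a median of 0.10. Dlx5 was at 18.7 CPM in the arch and 0.524 in the root, Dlx6 at 17.1 and 0.262 (2 UMIs; log2 4.17 to 9.07) and Tfap2b at 6.74 and 0.131 (1 UMI; log2 3.20 to 10.99). Msx2 (8.53 and 1.05 CPM) and Sox9 (12.3 and 2.49 CPM) were the other pair besides Prrx2. Tfap2a, a paralogue of Tfap2b, was instead at 2.15 CPM in the arch and 10.9 in the root, and at under 0.3 CPM in both tdTomato sets. Twist1, a mesenchymal bHLH factor, was at 24.98 and 53.9 CPM. Without the cells holding Dlx5, Dlx6 or Tfap2b the list's median was -0.40, which follows in part by construction, since that step sets these 3 members to 0 in the arch.

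HOX genes, which mark position along the body axis, were counted higher in the arch in 6 of 13 measured members and lower in 0 (median 0.28). Hoxb4 was at 13.3 CPM in the arch, 14.8 in Asc eGFP and 2.49 in the root (log2 2.42, 1.77 to 3.16), and Hoxb2 at 33.5, 31.1 and 9.57 CPM (log2 1.81, 1.47 to 2.16). Hoxb3 (log2 1.73), Hoxa5 (1.33), Hoxa4 (1.28) and Hoxa3 (0.64) were the others. Hoxb4 and Hoxb2 were thus at like levels in arch and ascending crest cells, whereas Dlx5 was at 2.55 CPM in Asc eGFP.

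Of 15 measured heart regulators, 7 were lower in the arch and 1 was higher, with a median of -0.46. Gata4, a zinc-finger regulator of heart genes, was at 15.6 CPM in Root eGFP cells and had 2 UMIs in all Arch eGFP cells (log2 -9.57, -12.63 to -7.69). It was at 13.4 CPM in Root tdTomato and at 2.02 and 2.59 CPM in the ascending sets. Within Root eGFP cells it was at 12.5 CPM in female and 32.7 CPM in male cells. Tbx20 (13.7 and 45.9 CPM), Tbx2 (7.53 and 19.3) and Tbx18 (32.7 and 62.8) were lower too. Heyl (76.5 and 126) and Nr2f2 (34.8 and 53.7) were also among them, with female log2 ratios of -0.46 and -0.15. Foxf1, a forkhead gene of splanchnic mesoderm, was at 14.2 CPM in the arch and had 0 UMIs in Root eGFP cells, at least 36.2-fold higher, although Root tdTomato cells had 2.48 CPM.

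Contractile genes were called in shares near those of all genes. Of 25 measured, 1 (4%) was higher, 2 (8%) were lower and 22 were neither (median -0.04), with Acta2 at 21433 and 20403 CPM and Cnn1 at 1466 and 1441 CPM. Actg2 was higher (435 and 263 CPM), and Sncg and Synm were lower in the arch. Contractile regulators gave 0 higher and 1 lower, Zeb2, of 21. Des, desmin, was at 27.3 CPM in Arch eGFP, 34.2 in Root eGFP and 44.8 in Asc eGFP, but at 304 and 332 CPM in root and ascending tdTomato cells. The cardiac genes were few: 5 of 21 were measured and 3 were lower in the arch, namely Tnnt2, Ankrd1 (19.3 and 48.2 CPM) and Myl4 (12.0 and 18.2 CPM). Of 12 measured calcium-handling genes Pln and Slc8a1 (53.7 and 96.8 CPM) were lower and 0 higher, while the pump Atp2a2 was at 543 and 545 CPM.

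Elastic fibre genes were higher in the arch in 12 of 23 measured members and lower in 0 (median 0.63). Eln, the elastin precursor, was at 2432 CPM in the arch, 2272 in Asc eGFP and 1396 in the root (log2 0.80, 0.77 to 0.83, and 0.89 in female cells). The microfibril genes Mfap5 (749, 572 and 193 CPM; log2 1.95, 1.88 to 2.03) and Mfap4 (952, 883 and 354 CPM; log2 1.43, 1.37 to 1.48) and the latent TGF-beta binding gene Ltbp2 (81.1, 42.7 and 29.5 CPM) were further members. Within Root eGFP cells Mfap5 was at 220 CPM in female and 41.5 CPM in male cells. Fbn1 (184 and 163 CPM) and Fbln5 (619 and 653 CPM) were within 1.5-fold. Without the Dlx5, Dlx6 or Tfap2b cells Eln was still at 2195 CPM.

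Collagens were divided, with 7 of 21 higher and 4 lower. The 7 were Col6a2, Col6a1 (211 and 88.8 CPM), Col15a1, Col6a6, Col1a2 (1436 and 919 CPM), Col1a1 and Col5a1, while the fibrillar Col3a1 (1248 and 1265 CPM) and Col6a3 (101 and 70.4 CPM) were within the limits. Col8a1, Col4a4 (12.6 and 30.1 CPM), Col4a3 (4.69 and 9.70 CPM) and Col16a1 were lower. Secreted serine proteases and precursor-processing enzymes went both ways (4 higher, 3 lower of 10): Prss12 and Htra1 (543 and 251 CPM) were higher, and Corin and Pcsk6 (4.03 and 7.73 CPM) lower. Among genes of natriuretic peptide and cyclic GMP signalling, the receptor Npr1 was higher in the arch (130 and 46.8 CPM; log2 1.47, 1.32 to 1.63), and the cyclase subunit Gucy1a1 (341 and 713 CPM) and the kinase Prkg1 (59.4 and 112 CPM) were lower.

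Signalling genes went both ways. Of 26 measured Wnt genes 5 were higher and 2 lower: Sfrp2, the antagonist Frzb (38.6 and 10.2 CPM) and 3 others against Sfrp1 and the ligand Wnt16 (67.9 and 209 CPM). Wnt16 differed in female cells (log2 -1.70) and not in male cells (0.00). Of 23 BMP genes 8 were higher, among them the antagonists Fst (8.34 and 3.54 CPM) and Chrdl1 (5.86 and 1.18 CPM) and the receptor Bmpr1b (58.4 and 25.8 CPM), and the ligand Bmp2 (16.3 and 34.9 CPM) was lower. Of 29 TGF-beta genes 2 were higher, Ltbp2 and Lefty1, and 0 lower; Tgfb2 (179 and 172 CPM) and Tgfbr2 (43.1 and 48.0 CPM) were close. Notch gave 0 higher and 3 lower of 10, with the receptor Notch3 at 19.1 and 47.6 CPM. Axon guidance genes gave 5 higher and 3 lower of 25, with the ligand Sema3c at 135 and 44.2 CPM (log2 1.61, 1.45 to 1.77).

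Of 9 measured RGS genes Rgs5, Rgs4 (118 and 46.9 CPM) and Rgs10 (17.2 and 6.42 CPM) were higher, whereas Rgs17 was lower (2.36 and 18.1 CPM; log2 -2.94, -3.25 to -2.62). Ion channel genes gave 6 higher and 1 lower of 22, including Piezo1 (9.42 and 2.62 CPM), a mechanosensitive channel, and Abcc9 (127 and 58.8 CPM), a subunit of the potassium channel that also contains Kcnj8. All 30 oxidative phosphorylation genes were within the limits (median 0.07).

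Immediate-early and dissociation genes were lower in the arch in 12 of 27 measured members and higher in 3, with a median of -0.29. Jun was at 385 CPM in the arch, 528 in Asc eGFP and 953 in the root, and Atf3 at 134, 192 and 377 CPM. These genes respond to handling of tissue. After the 25% of cells with the highest share of UMIs from Fos, Fosb, Egr1, Atf3 and Jun over both sets were left out, which kept 77.1% of Arch eGFP and 48.2% of Root eGFP cells, the list's median was 0.24, in part by construction since these 5 genes belong to the list, and the counts over all genes were 102 higher and 74 lower. Genes of modulated SMCs were lower in 7 of 13 and higher in 2, Timp1 and Lgals3 (median -0.86, and -0.31 in female cells), with Cd34 at 3.40 and 18.1 CPM, Col8a1 and Thbs1 among them. Of 14 chemokine, complement and adhesion genes 7 were lower, including Vcam1 (18.4 and 34.5 CPM), and 2 were higher, Thbd and Ccl19. The part of tissue handling in any of these values was not tested.

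**Figure D5:**
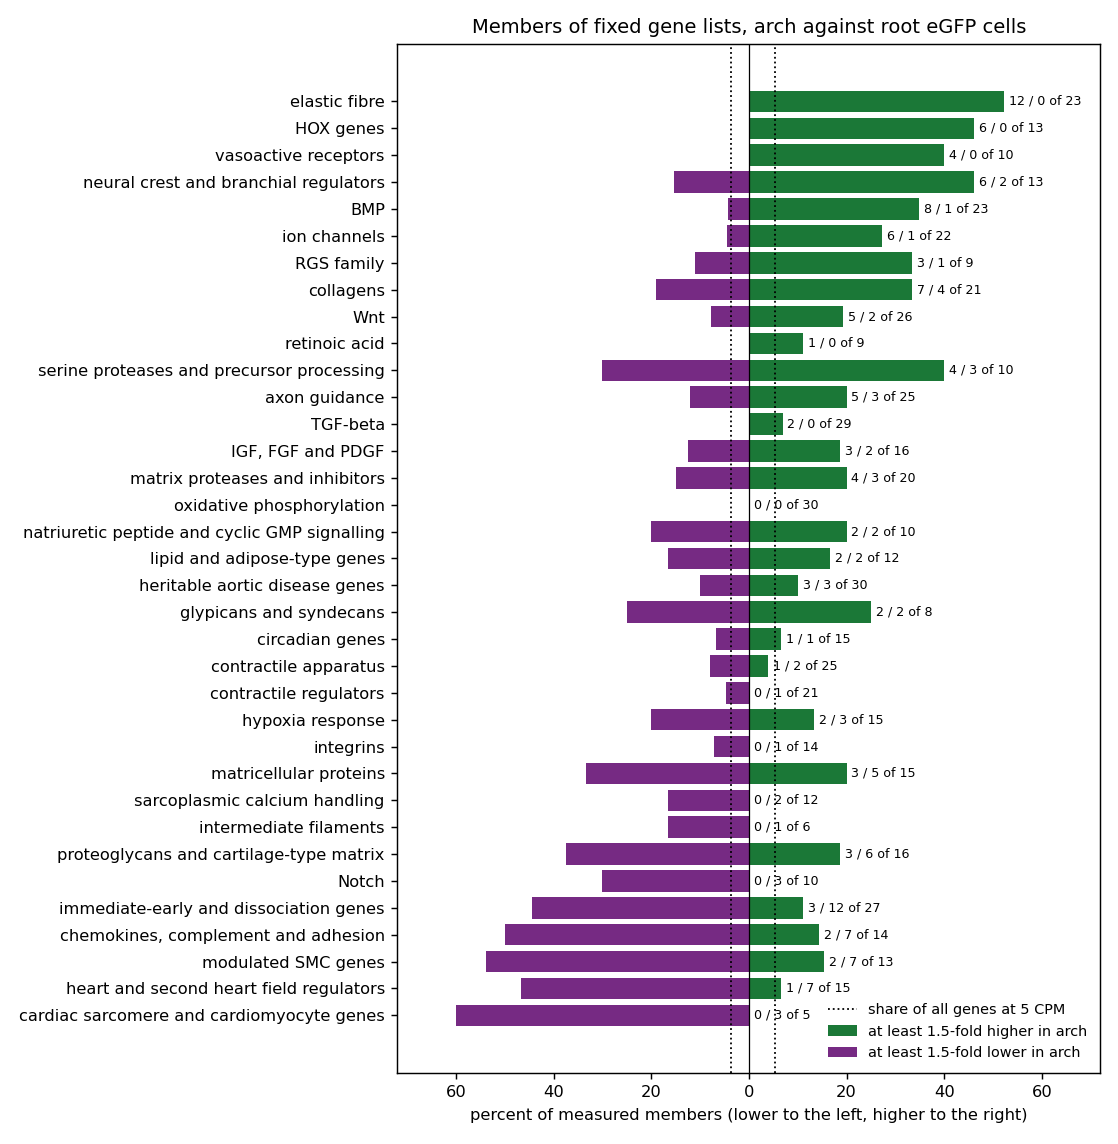
Percent of measured members (x axis) of each of 35 gene lists (y axis) that were at least 1.5-fold lower (left) or higher (right) in Arch eGFP than in Root eGFP cells; figures beside the bars are counts higher / lower of measured members, and dotted lines are the shares of all 9835 genes (5.38% and 3.73%). Elastic fibre, HOX, vasoactive receptor, TGF-beta and retinoic acid genes reach to the right alone. The cardiac, Notch, calcium-handling, contractile regulator, integrin and intermediate filament lists reach to the left alone.

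The ascending libraries, which share no cells with either set, gave a separate reading of crest against non-crest cells. In Asc eGFP against Asc tdTomato cells, 1.02% of 5688 genes were higher by 1.5-fold or more and 0.738% lower, each with an interval that did not hold 1. Of the 85 genes higher in the arch, 64 could be read there: 12 were higher in Asc eGFP, among them Mia, Sfrp2, Abcc9 and Smoc1, 2 were lower (Gas1 and Lamc3) and 50 were neither. Of the 63 lower in the arch, 40 could be read: 10 were lower in Asc eGFP, among them Tnnt2, Pln, Cp and Dcn, 8 were higher, among them Tbx20, Notch3, Sncg and Etv1, and 22 were neither. Thus Tnnt2 and Pln were lower both in the arch and in crest cells of the ascending aorta, whereas Tbx20 was lower in the arch (13.7 against 45.9 CPM) but higher in ascending crest cells (29.6 against 12.2 CPM).

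The leading genes also divided single cells. After each cell was thinned to 5000 UMIs, which left out 717 Arch eGFP and 5 Root eGFP cells, a median of 3 of the 15 arch-leading genes and 0 of the 15 root-leading genes had a UMI in an Arch eGFP cell, against 0 and 2 in a Root eGFP cell. The share of cells with more arch-leading than root-leading genes was 80.9% in Arch eGFP, 53.7% in Asc eGFP, 39.2% in Asc tdTomato, 6.55% in Root eGFP and 5.96% in Root tdTomato. The genes were chosen on the Arch eGFP and Root eGFP cells, so the shares in these sets follow in part from that choice. Root tdTomato cells come from the same library as Root eGFP cells, and only the ascending sets share no library with the choice. Rgs5 was seen in 41.4% of thinned Arch eGFP and 2.83% of Root eGFP cells (58.8% and 6.84% before thinning), and in 0 of 47 thinned root macrophages. Tnnt2 was seen in 6.53% and 43.7% (12.2% and 57.4% before thinning), beside 10.6% of those macrophages. The median depth of all 71 root macrophages before thinning was 8945 UMIs.

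Markers of other cell types moved with the contrast in part. The summed level of 12 fibroblast markers was 1605 CPM in Arch eGFP and 915 in Root eGFP cells, of which Mfap5 alone was 749 and 193 CPM. Dpt, Scara5 and Dpep1 were at 0 in the root and at only 1.58, 1.77 and 0.154 CPM in the arch. Dcn (10.8 and 26.7 CPM), Lum (3.03 and 7.21) and Cd34 went the other way. That of 10 pericyte markers was 1181 and 793 CPM, of which Rgs5 was 340 and 8.39 CPM, with Vtn at 0 in both. Notch3 and Ndufa4l2 (0.0307 and 8.39 CPM) were higher in the root. That of 10 cardiomyocyte markers was 75.9 and 190 CPM, Pln and Ryr2 (47.9 and 70.5 CPM) included. Myh6 and Nppa were at 0 in the arch but had only 2 and 1 UMIs in the root. Mybpc3 was at 0 in the root and had only 6 UMIs in the arch. Endothelial markers summed to 38.2 and 26.2 CPM, Schwann and melanocyte markers to 3.38 and 5.11 CPM, and mesothelial markers to 0.184 CPM in the arch with all 8 at 0 in the root. The reporter gave a measure of RNA from neighbouring cells: tdTomato was at 8.65 CPM in Root eGFP cells, 1.85% of its level in Root tdTomato cells, and taking that share of the Root tdTomato profile out of Root eGFP left 85 genes higher and 62 lower. The conditions had capped tdTomato at 1 UMI, however, and without that cap, in 602 cells, its share was 6.41%. The 32 cells added in this way had a median of 23200 UMIs, beside 12848.5 in Root eGFP cells. Whether they were doublets was not tested, so the share of 6.41% may hold more than RNA from neighbouring cells. Taking out that share, an alternative chosen after seeing the data, left 89 higher and 62 lower, and Tnnt2 at a log2 ratio of -3.66. The part of other cell types in each gene's difference was not tested.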

How the data were processed

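The authors deposited unnormalised UMI counts for each gene and cell barcode, written by Cell Ranger 7.0.0 per the file headers. The genome build was mm10 and Seurat 4.3 was a later tool, per the submitters' processing notes; no Seurat output entered here. The notes state 10506 cells in the arch and 4040 in the root library before filtering, equal to the barcodes in the files, and 4710 and 1841 after it. The stated conditions on barcodes were applied, UMIs were summed per cell set and divided by the total, and ratios were given exact conditional binomial intervals, levels exact Poisson intervals and shares exact (Clopper-Pearson) binomial intervals at 95%. These intervals do not hold the spread between animals. A set with 0 UMIs was set against 3 UMIs. Myh11 and the other genes of the conditions, the reporters, mitochondrial genes, Xist, Tsix and Y-linked genes were kept out of counts and rankings. Total UMIs of all barcodes were 104691850 (arch) and 41479646 (root).

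Named genes were the 15 highest and 15 lowest by the interval's bound nearest 0 among genes with 20 CPM in either set, and from each list up to 4 members with the largest ratios, plus members of the crest, HOX and heart lists; other genes named with a value were chosen after their values were seen. The cells, lists and rules were chosen with earlier results of these data known. Some genes that the rule names are not reported here. Of 838 genes in the lists 837 were in the files. No doublet caller was run, and free RNA was not removed in the main values. Alternatives are given in the closing section. The ratio and its interval were tested on simulated data. Python 3.11.15, numpy 2.4.6, scipy 1.17.1 and pandas 2.3.3 were used. No number of animals is given in the sources used here, and each group was 1 library.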

Additional observations from a re-analysis of the deposited data

How the results depend on the processing

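Of the 16 alternatives, the counts over all genes moved by over 1.5 times under 5. In male cells alone 300 genes were higher and 206 lower in the arch, from 64 root cells, and 75 and 47 of them were among the 85 and 63. A minimum of 10 CPM gave 131 and 103, a minimum of 50 CPM 43 and 30, and no minimum 830 and 5452, the latter by construction, since 3 UMIs stand for 0 in the shallower root set. Without the Arch eGFP cells that held a Dlx5, Dlx6 or Tfap2b UMI, an alternative chosen after seeing the data, 56 were higher, and the 55 lower were within 1.5 times. Female cells alone (78 and 45), median-of-ratios scaling (80 and 66, a shift of 0.04 on the log2 scale), a mean of per-cell CPM (89 and 68), at least 20 eGFP UMIs (85 and 61), no tdTomato UMI (87 and 62), at least 2000 genes (86 and 62), at least 30 Myh11 UMIs (77 and 56) and leaving out cells in which Xist and Y-linked UMIs met (86 and 62, also chosen after seeing the data) were within 1.5 times. Both carry-over shares and the immediate-early alternative, given beside their results above, left these counts within 1.5 times too. None of the 30 leading genes changed sign under the alternatives run for them. Of 15 list medians that moved, 3 changed sign: the crest and immediate-early lists, in part by construction as given above, and intermediate filaments in male cells (0.24 against -0.12). No paired analysis was possible because each group was 1 library. Counting error is the only error known here: the 570 root cells limit genes under 20 CPM there most, and no value can be set against the spread between animals.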
